A study of Mus musculus with 6 samples.

Results

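A set of 40 genes of the smooth muscle contractile apparatus and of the actin cytoskeleton around it were followed in cultured mouse prostate stroma with and without an activated β-catenin. The set was chosen by gene name, with earlier results of these data known. It held 4 muscle actins, 3 myosin heavy chains, 5 genes of the myosin light chains and their control and 12 thin filament genes. The rest were 4 transcriptional regulators, 10 crosslinkers and adhesion genes and 2 intermediate filament genes. All 40 were among the 24346 gene symbols of the deposited tables. The 3 S37A libraries came from primary prostate stromal cells infected with the FU-CGW lentiviral vector carrying the cDNA of S37A β-catenin, a form that lacks one of the phosphorylated residues through which the protein is normally degraded. The 3 vector libraries carried the genotype label vec, that is, the vector. Both groups were C57BL/6 cells from prostates of mice aged 8 to 12 weeks, grown on collagen I with 5% Nu-Serum, 5% FBS and 1e-10 M dihydrotestosterone, an androgen. Cells that did not attach within 30 min of replating were discarded, so the cultures were a plated mixture of stromal cells and not a sorted cell type. The labels do not state whether the libraries of a group were separate infections, cultures or animals, and the p-values therefore measure the spread between these libraries, which may be technical.

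In smooth muscle, myosin thick filaments pull on thin filaments of actin and tropomyosin. Contraction is switched on when myosin light chain kinase phosphorylates the regulatory light chain and off when myosin phosphatase removes the phosphate, while caldesmon and calponin sit on the thin filament and modulate the motor. Many of these genes are transcribed through serum response factor bound to an A/T-rich element called the CArG box, with myocardin or the related MRTF proteins as coactivators. In the normal prostate, smooth muscle surrounds the epithelial ducts, and cultured stroma often holds myofibroblasts that express part of the same programme.

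The labels were checked first. Ctnnb1, the gene of β-catenin, measured 132, 144 and 146 FPKM in S37A and 116, 99.1 and 116 FPKM in vector cells (FPKM is a level scaled both to the length of the transcript and to the depth of the library). Axin2, a direct target of β-catenin with TCF factors, measured 3.29, 2.74 and 2.82 FPKM in S37A and 0.169, 0.0921 and 0.132 FPKM in vector cells, without overlap. The inferred depth was 40139706 to 46253516 fragments in S37A and 45619814 to 50327525 fragments in vector libraries, and 10959 to 10995 genes in S37A and 11074 to 11093 in vector libraries reached 1 FPKM. By mean FPKM among all genes, Acta2 ranked 4, Cnn1 128 and Des 786 of the 7 genes listed as defining smooth muscle. Smtn ranked 1454, Myh11 1632, Lmod1 2141 and Myocd, at a mean of 0.480 FPKM, 12073. Other abundant genes of the set were Tagln at rank 8, Tpm1 at 12, Myl9 at 26 and Actg2 at 29. Myod1, which specifies skeletal muscle, was listed at 0 in all 6 libraries.

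Of the 40 genes, 37 reached the mean of 0.5 FPKM needed for the test, and Actc1, Myocd and Pgm5 did not. In S37A, 19 of the 37 were higher, 0 were lower and 18 were not called, at a Benjamini-Hochberg adjusted p under 0.05 from limma on log2(FPKM + 1), adjusted over 12022 genes. The count of 19 was 10, 9 and 9 without S37A replicate 1, 2 or 3 and 18, 14 and 10 without vector replicate 1, 2 or 3. It was 9 with no filter on low values and 12 with the replicate block. At an unadjusted p under 0.05, limma placed 24 of the 37 higher and 2 lower. Among all genes tested, 6.06% were called higher and 19.9% lower, against 51.4% of the 37 called higher. Because the set was chosen with earlier results of these data known, this contrast is a description and not a test of the set. The median log2 difference of the 37 was 0.17, and that of all genes tested was -0.07. These values depended on the scaling: median-ratio scaling moved the medians to 0.24 and 0.00 and called 23 of the 37 higher, against 10.5% of all genes higher and 7.86% lower. Quantile normalization called 16 of the 37 higher, against 9.10% of all genes higher and 7.96% lower, and rescaling without the 100 most abundant genes called 20, against 7.79% higher and 12.6% lower. The rises were small, from 1.09-fold (Tpm4) to 1.56-fold (Csrp2), or 0.13 to 0.64 on the log2 scale. In 25 of the 37 every S37A library lay above every vector library, in 1 (Tpm3) every one lay below, and in 11 the groups overlapped. Over all genes tested, 11.3% had all S37A libraries above and 36.5% had all below.

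**Figure D1:**
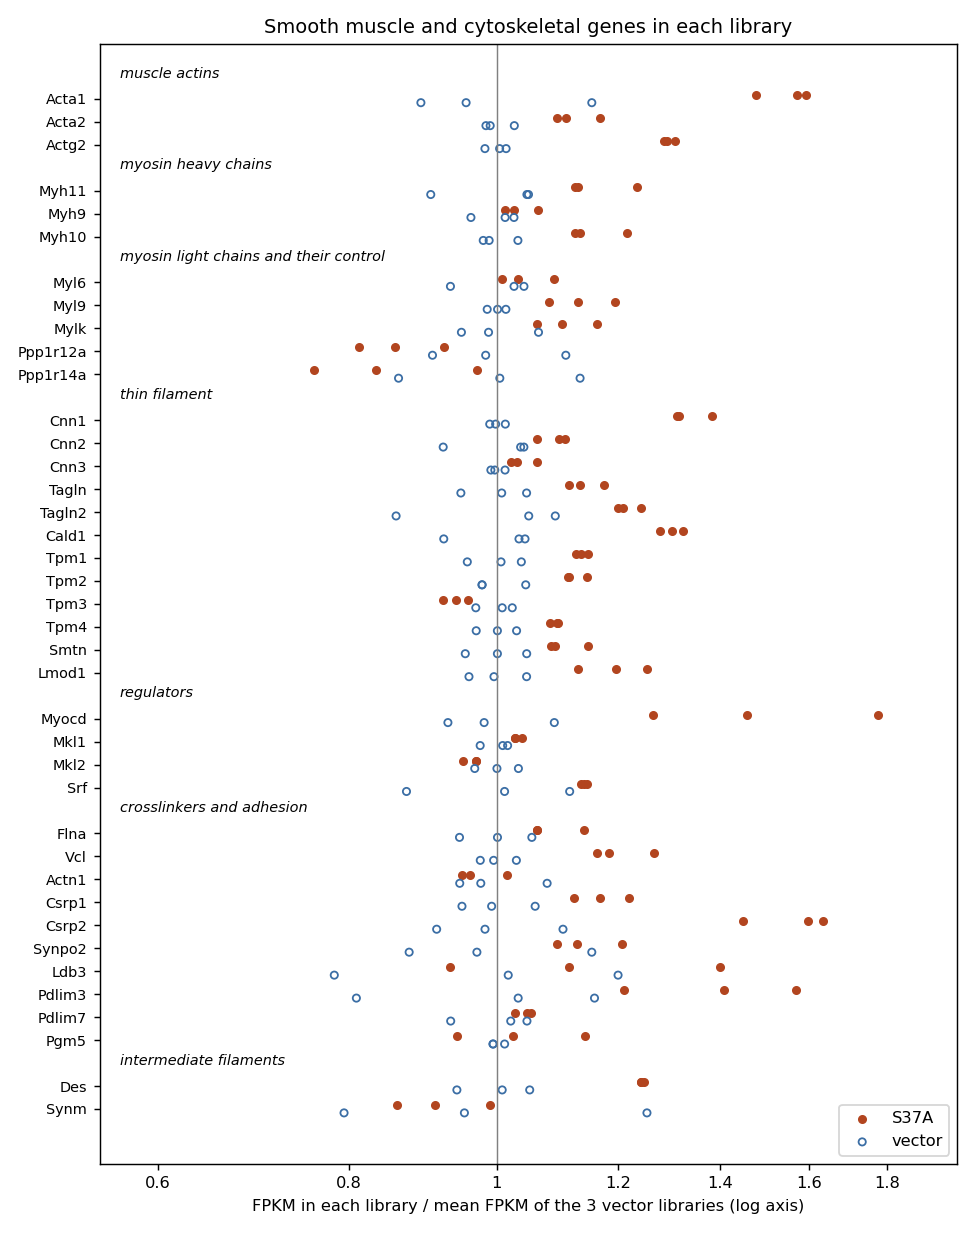
FPKM of each gene in each library divided by the mean of the 3 vector libraries, on a log axis, grouped by role; filled points are S37A and open points vector libraries, and Actc1, which had 0 in some libraries, is left out. Csrp2, Acta1, Cnn1, Cald1, Actg2 and Des have S37A points well to the right of the vector points, while Tpm3 has them to the left.

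**Figure D2:**
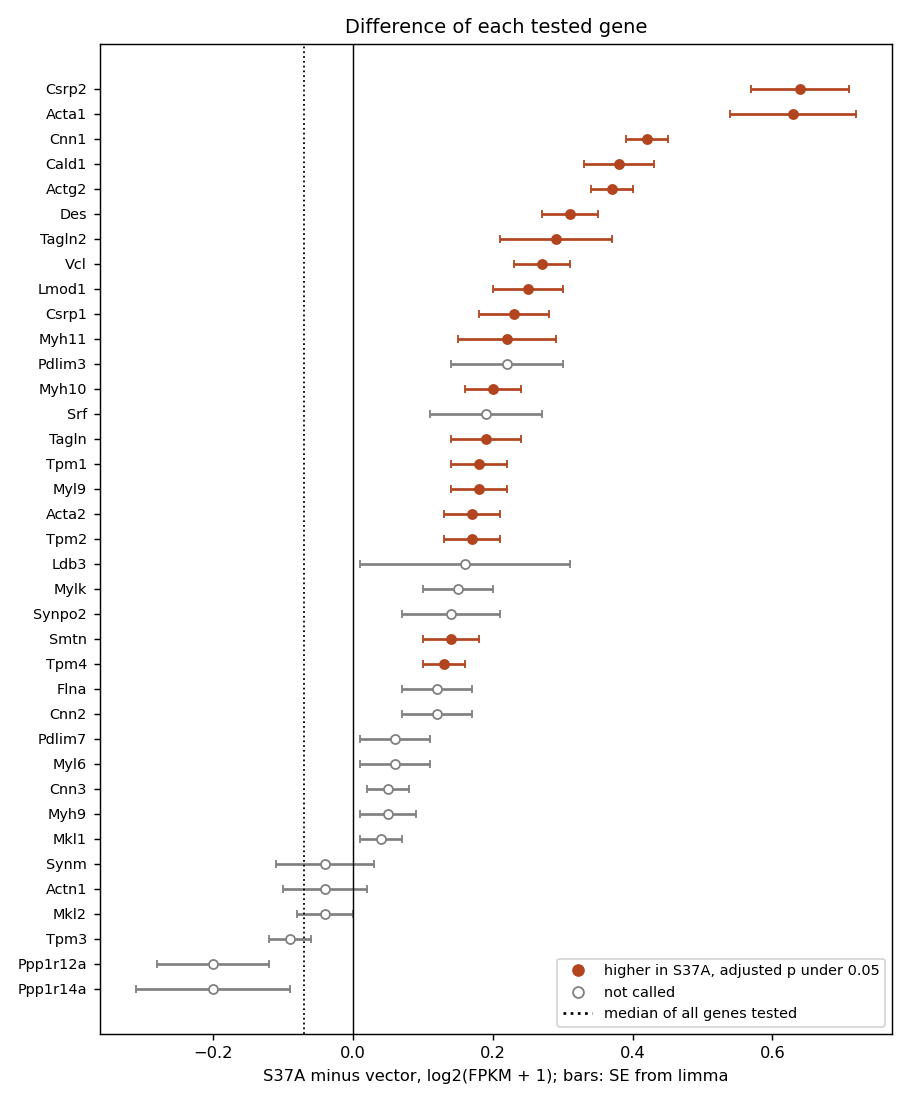
S37A minus vector difference of the 37 tested genes on the log2(FPKM + 1) scale with its SE from limma; filled points had an adjusted p under 0.05. The 19 filled points lie between 0.13 and 0.64, and the dotted line marks the median of all genes tested, -0.07.

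Together the 40 genes held 19018, 18617 and 18551 FPKM in S37A libraries, which was 4.90%, 4.70% and 4.67% of each library's FPKM. In vector libraries they held 15990, 16764 and 16608 FPKM, or 4.04%, 4.17% and 4.15%. The set was thus an abundant one, with 21 genes at a mean of at least 100 FPKM. Of these 21, 13 were higher and 8 were not called, with a median log2 difference of 0.17, while the 699 genes of that abundance had 86 higher, 112 lower and a median of -0.04. Among the other 19 genes, 6 were higher and 10 not called. In libraries of a mixed culture, a change in the number of cells that express these genes cannot be told apart from a change in the RNA per cell. Markers of some other cell types also differed. Macrophage markers summed to 54.8 to 61.9 FPKM in S37A and 21.4 to 27.4 FPKM in vector libraries, with 6 of 8 tested called higher. Pericyte markers summed to 135 to 145 FPKM in S37A and 116 to 128 FPKM in vector libraries, with Mcam and Cspg4, which smooth muscle also expresses, higher among 5 tested. Fibroblast markers summed to 4709 to 5160.0 FPKM in S37A and 4037 to 4633 FPKM in vector libraries, with Thy1 higher and Pdgfra lower among 8 tested. Endothelial markers went the other way, summing to 92.6 to 96.3 FPKM in S37A and 96.9 to 109 FPKM in vector libraries. Limma called 0 of the 5 endothelial markers tested. Sums of prostate epithelium and glia markers overlapped between the groups, with 0 of 6 and 0 of 2 tested called. The part of these cell types in the result was not tested.

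All 3 muscle actins that could be tested were higher, with a median log2 difference of 0.37. Actg2, the γ smooth muscle actin of visceral muscle (chromosome 6, 83512905 to 83536265, minus strand, mm10 as are all positions here), had 1174, 1193 and 1179 FPKM in S37A and 896, 925 and 916 FPKM in vector cells. The groups lay far apart for the spread within them, and the log2 difference was 0.37 (SE 0.03, adjusted p = 0.00161). Acta1, the skeletal α-actin (chromosome 8, 123891769 to 123894751, minus strand), had 127, 137 and 135 FPKM in S37A and 76.7, 82.1 and 99.2 FPKM in vector cells. Its groups did not overlap, with means of 133 ± 5.49 in S37A and 86.0 ± 11.8 FPKM in vector cells (SD, n = 3 each) and a log2 difference of 0.63 (SE 0.09, adjusted p = 0.00715). Of 15 markers of skeletal muscle without Acta1, 4 could be tested, and limma called 0 of them, with 0 at an unadjusted p under 0.05. The markers summed to 2.01 to 3.23 FPKM in S37A and 2.43 to 3.12 FPKM in vector libraries. Among 3 cardiac markers tested, Nppb, the gene of the natriuretic peptide BNP, was higher, with 16.6, 15.3 and 15.4 FPKM in S37A and 9.17, 11.8 and 10.5 FPKM in vector cells (adjusted p = 0.00799).

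Acta2, the α smooth muscle actin (chromosome 19, 34241090 to 34255590, minus strand), was the most abundant gene of the set, with 3700.0, 3516 and 3471 FPKM in S37A and 3118, 3254 and 3138 FPKM in vector cells. All 3 S37A libraries were higher, but the log2 difference of 0.17 (SE 0.04, adjusted p = 0.0267) was the smallest of the 3 actins. The call was lost without S37A replicate 1, 2 or 3 or vector replicate 3, with adjusted p-values of 0.0711, 0.0738, 0.0746 and 0.0802, and quantile normalization brought the difference to 0.05 (adjusted p = 0.276, with 0.00865 to 0.276 over all alternatives). Actc1, the cardiac α-actin, was near the limit of detection at 0.0517, 0 and 0 FPKM in S37A and 0.0499, 0.0634 and 0.0874 FPKM in vector cells. Coding sequences of the muscle actins are alike, with 85.4% of bases identical between Acta1 and Acta2 and 84.2% between Acta2 and Actg2, but 0% of their windows of 50 bases were shared. Within the muscle actins the composition shifted: Acta2 made up 73.0% ± 0.833 of their FPKM in S37A and 76.0% ± 0.435 in vector cells (SD, n = 3 each), Actg2 24.2% ± 0.664 in S37A and 21.9% ± 0.174 in vector cells, and Acta1 2.73% ± 0.169 in S37A and 2.06% ± 0.283 in vector cells. None of these shares overlapped between the groups, and each had a two-sided exact permutation p of 0.1, the smallest that 3 against 3 libraries allow.

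The cytoplasmic actins, which are found in all cells, were set beside the muscle actins. Actg1, cytoplasmic γ-actin, had 1786, 1845 and 1819 FPKM in S37A and 1471, 1487 and 1644 FPKM in vector cells (log2 difference 0.25, adjusted p = 0.0159), and Actb, cytoplasmic β-actin, 2352, 2376 and 2342 FPKM in S37A and 2059, 2158 and 2272 FPKM in vector cells (log2 difference 0.12, adjusted p = 0.0719). The muscle actins were 53.9% ± 0.724 of the FPKM of all 6 actins in S37A and 53.0% ± 1.34 in vector cells (SD, n = 3 each), with overlapping groups and an exact permutation p of 0.6.

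Because the muscle genes are known targets of serum response factor, the promoters were searched for the CArG box. This 10-base element reads the same in form on both strands. Only exact matches counted, with CC, then A or T alone, then GG. Promoters here are the 250 bases before and 50 bases after each annotated start, from RefSeq on GRCm38.p6. Those of Acta1, Myl9 and Vcl are shown because these genes were called higher and hold a box. That of Acta2 is shown because this abundant gene was called higher and holds no exact match in the window. The Acta2 window does hold ccctatatgg and ccttgtttgg, which have a C or a G among the A/T bases and were not counted. Capitals mark the box, and each sequence runs 5′ to 3′ on the gene's strand.
Acta1 (chr8:123894726-123895025, minus strand): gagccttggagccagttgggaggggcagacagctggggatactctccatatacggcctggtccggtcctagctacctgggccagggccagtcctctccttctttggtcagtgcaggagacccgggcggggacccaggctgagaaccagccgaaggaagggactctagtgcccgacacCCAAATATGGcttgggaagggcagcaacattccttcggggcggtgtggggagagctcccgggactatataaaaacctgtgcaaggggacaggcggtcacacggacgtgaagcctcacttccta
Myl9 (chr2:156775214-156775513, plus strand): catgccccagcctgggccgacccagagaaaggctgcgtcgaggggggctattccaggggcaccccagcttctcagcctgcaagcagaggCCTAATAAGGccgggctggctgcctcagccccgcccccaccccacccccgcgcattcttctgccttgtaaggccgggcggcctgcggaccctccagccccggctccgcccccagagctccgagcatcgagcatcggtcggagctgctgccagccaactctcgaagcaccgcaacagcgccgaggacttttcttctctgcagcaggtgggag
Vcl (chr14:20929148-20929447, plus strand): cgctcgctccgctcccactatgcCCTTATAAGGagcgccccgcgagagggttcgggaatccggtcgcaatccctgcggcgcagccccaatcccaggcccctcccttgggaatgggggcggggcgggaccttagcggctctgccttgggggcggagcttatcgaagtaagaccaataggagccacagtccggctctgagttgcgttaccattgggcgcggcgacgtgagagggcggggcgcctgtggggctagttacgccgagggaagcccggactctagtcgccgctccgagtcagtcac
Acta2 (chr19:34255374-34255623, minus strand, the 250 bases before the start): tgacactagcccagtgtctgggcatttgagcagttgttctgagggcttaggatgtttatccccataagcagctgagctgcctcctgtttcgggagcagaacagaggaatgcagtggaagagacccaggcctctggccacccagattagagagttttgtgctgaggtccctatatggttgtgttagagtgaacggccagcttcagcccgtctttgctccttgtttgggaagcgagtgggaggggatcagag
The box starts 73 bases before the start in Acta1, 161 in Myl9 and 227 in Vcl. Of the 43 promoters of the 35 genes found in the table, 9 held a box, or 20.9%, while 535 of all 32851 promoters did, or 1.63%. Overlapping promoters of Ldb3 hold the same box, which was counted for each. The 8 genes with a box were Acta1, Actc1, Cnn2, Ldb3, Myl6, Myl9, Srf and Vcl; 3 of them were higher, 4 were not called and 1 was not tested, and the median log2 difference was 0.18. Of the 27 genes without an exact match, 12 were higher, 14 were not called and 1 was not tested, with a median of 0.14. Actg2, Tagln, Myh11, Myocd and Csrp2 had no promoter available and were not searched. Of these 5 genes, 4 were higher and 1 was not tested, with a median log2 difference of 0.29. A match describes the letters of the window and does not show binding. Absence of an exact match says nothing of looser forms in the window or of boxes elsewhere in the gene.

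Of the myosin heavy chains, the smooth muscle chain Myh11 and the non-muscle chain Myh10 were higher and the non-muscle chain Myh9 was not called. Myh11 (chromosome 16, 14194535 to 14291372, minus strand), the motor that marks mature smooth muscle, had 49.96, 45.5 and 45.7 FPKM in S37A and 42.3, 42.4 and 36.6 FPKM in vector cells. The groups were close but did not overlap, with a log2 difference of 0.22 (SE 0.07, adjusted p = 0.0489). The call for Myh11 rested on the full set of libraries: the adjusted p was 0.0886 to 0.126 without S37A replicate 1, 2 or 3 and 0.0661 and 0.101 without vector replicate 2 or 3, within 0.00913 to 0.126 over all alternatives. Myh10, non-muscle myosin IIB (chromosome 11, 68691559 to 68816632, plus strand), had 27.8, 25.9 and 25.7 FPKM in S37A and 23.6, 22.4 and 22.6 FPKM in vector cells, a log2 difference of 0.20 (SE 0.04, adjusted p = 0.0177). It fell just short without S37A replicate 3 (adjusted p = 0.0523) or vector replicate 3 (adjusted p = 0.0543). Myh9, non-muscle myosin IIA and the most abundant of these chains, had 314, 303 and 299 FPKM in S37A and 284, 303 and 299 FPKM in vector cells (log2 difference 0.05, SE 0.04, adjusted p = 0.336), with overlapping groups. As shares of the 3 chains, Myh11 was 12.4% in S37A and 11.3% in vector cells, Myh10 6.98% in S37A and 6.38% in vector cells, and Myh9 80.6% in S37A and 82.3% in vector cells, each with an exact permutation p of 0.1.

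Among the 5 genes of the light chains and their control, 1 was called. Myl9, the regulatory light chain of smooth muscle myosin (chromosome 2, 156775420 to 156781658, plus strand), had 1166, 1232 and 1116 FPKM in S37A and 1046, 1033 and 1017 FPKM in vector cells, without overlap (log2 difference 0.18, SE 0.04, adjusted p = 0.0251). Without S37A replicate 1 or 2 or vector replicate 2 or 3 its adjusted p was 0.0594, 0.0760, 0.0644 and 0.0764. Myl6, the essential light chain shared by smooth muscle and non-muscle myosin, had 764, 826 and 783 FPKM in S37A and 707, 778 and 789.7 FPKM in vector cells and was not called (adjusted p = 0.403). Mylk, the kinase that phosphorylates Myl9, had 61.8, 56.5 and 58.6 FPKM in S37A and 52.5, 56.6 and 50.4 FPKM in vector cells. Its groups overlapped by a narrow margin and its log2 difference of 0.15 (SE 0.05) had an adjusted p of 0.0738, which was 0.0470 without vector replicate 2 and 0.0128 to 0.195 over all alternatives.
The 2 genes of phosphatase control, a subunit and an inhibitor with opposed roles, both had negative differences and were not called. Ppp1r12a, the targeting subunit of myosin phosphatase, had 29.3, 25.8 and 27.2 FPKM in S37A and 28.8, 35.2 and 31.2 FPKM in vector cells (log2 difference -0.20, SE 0.08, adjusted p = 0.0878). Without vector replicate 1 it was called lower (log2 difference -0.27, adjusted p = 0.0363; 0.0199 to 0.264 over all alternatives). Ppp1r14a, the inhibitor of that phosphatase known as CPI-17, had 6.40, 5.83 and 7.45 FPKM in S37A and 8.70, 7.71 and 6.62 FPKM in vector cells (log2 difference -0.20, SE 0.11, adjusted p = 0.192), and the groups overlapped.

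Thin filament genes were the largest group, and 9 of 12 were higher, 0 were lower and 3 were not called, with a median log2 difference of 0.18. Cnn1, calponin of differentiated smooth muscle (chromosome 9, 22099216 to 22109630, plus strand), had 471, 448 and 447 FPKM in S37A and 340.0, 337 and 345 FPKM in vector cells. The distance between the groups was many times the spread within either, with a log2 difference of 0.42 (SE 0.03, adjusted p = 0.00155), the smallest p of the set. Cnn2, which is more broadly expressed, had 419, 433 and 437 FPKM in S37A and 364, 409 and 411 FPKM in vector cells (log2 difference 0.12, adjusted p = 0.114). Cnn3 had 343, 330.0 and 333 FPKM in S37A and 320.1, 322 and 327 FPKM in vector cells (log2 difference 0.05, adjusted p = 0.234). Neither was called, although in both the groups did not overlap. Under median-ratio scaling limma called both higher (adjusted p = 0.0298 for Cnn2 and 0.0410 for Cnn3). Cnn2 was also called after rescaling without the 100 most abundant genes (adjusted p = 0.0491). Cnn1 took a larger share of calponin FPKM in S37A, 37.3% ± 0.811 in S37A and 32.2% ± 0.862 in vector cells (SD, n = 3 each; exact permutation p = 0.1).

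Cald1, caldesmon (chromosome 6, 34598500 to 34775473, plus strand), an actin-binding inhibitor of the myosin ATPase, had 543, 553 and 562 FPKM in S37A and 443, 392 and 439 FPKM in vector cells. The S37A libraries lay close together and well above the vector libraries, with a log2 difference of 0.38 (SE 0.05, adjusted p = 0.00625). Tagln, transgelin or SM22α (chromosome 9, 45929619 to 45936058), an actin-bundling protein, had 3055, 2895 and 2946 FPKM in S37A and 2462, 2718 and 2618 FPKM in vector cells (log2 difference 0.19, SE 0.05, adjusted p = 0.0276). Its groups did not overlap, and the call was lost without S37A replicate 1, 2 or 3 or vector replicate 3 (adjusted p = 0.0768, 0.0671, 0.0911 and 0.0706). Tagln2 (chromosome 1, 172500047 to 172507380), a relative found in many cells outside muscle, had 319.7, 322 and 331 FPKM in S37A and 229, 279.6 and 291 FPKM in vector cells (log2 difference 0.29, SE 0.08, adjusted p = 0.0423). Vector replicate 1 was the low library there, and Tagln2 lost its call without S37A replicate 1, 2 or 3 or vector replicate 2 (adjusted p = 0.0674 to 0.123). Smtn, smoothelin of contractile smooth muscle, had 50.8, 53.4 and 50.5 FPKM in S37A and 44.4, 46.6 and 48.7 FPKM in vector cells (adjusted p = 0.0472), a call lost without any 1 of the 6 libraries (adjusted p = 0.0502 to 0.140). Lmod1, the leiomodin that nucleates actin filaments in smooth muscle (chromosome 1, 135324807 to 135368065), had 37.5, 35.8 and 33.8 FPKM in S37A and 29.8, 31.3 and 28.7 FPKM in vector cells (log2 difference 0.25, SE 0.05, adjusted p = 0.0160). It missed the threshold without S37A replicate 2 (adjusted p = 0.0554) or vector replicate 3 (adjusted p = 0.0509).

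Tropomyosins, the coiled coils that lie along actin and control access of myosin, come from 4 genes, of which Tpm1, Tpm2 and Tpm4 were higher and Tpm3 was not called. Tpm1 (chromosome 9, 67022590 to 67049406, minus strand) had 2324, 2308 and 2348 FPKM in S37A and 2061, 1959 and 2125 FPKM in vector cells (log2 difference 0.18, SE 0.04, adjusted p = 0.0202). Quantile normalization brought that difference to 0.02 (adjusted p = 0.662, with 0.00940 to 0.662 over all alternatives), and the call was lost without S37A replicate 1, 2 or 3 or vector replicate 2 (adjusted p = 0.0506, 0.0635, 0.0826 and 0.0535). Tpm2, the β-tropomyosin of muscle, had 537, 552 and 536 FPKM in S37A and 471, 503 and 471 FPKM in vector cells (log2 difference 0.17, adjusted p = 0.0214). It was not called without S37A replicate 2 or 3 or vector replicate 3 (adjusted p = 0.0758, 0.0703 and 0.0677). Tpm4 had 523, 517 and 524 FPKM in S37A and 463, 478 and 492 FPKM in vector cells (log2 difference 0.13, adjusted p = 0.0347), again without overlap, and lost its call without any 1 of the 6 libraries (adjusted p = 0.0503 to 0.117). Tpm3, known in non-muscle cells for its cytoskeletal forms, had lower values in S37A, with 165, 162 and 168 FPKM in S37A and 170.1, 179.7 and 177 FPKM in vector cells (log2 difference -0.09, SE 0.03, adjusted p = 0.0940). That difference is close to the median of all genes tested, -0.07, and was -0.01 under median-ratio scaling (adjusted p = 0.799; 0.0426 to 0.799 over all alternatives). Its share of the tropomyosin FPKM was 4.65% in S37A and 5.52% in vector cells (exact permutation p = 0.1).

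**Figure D3:**
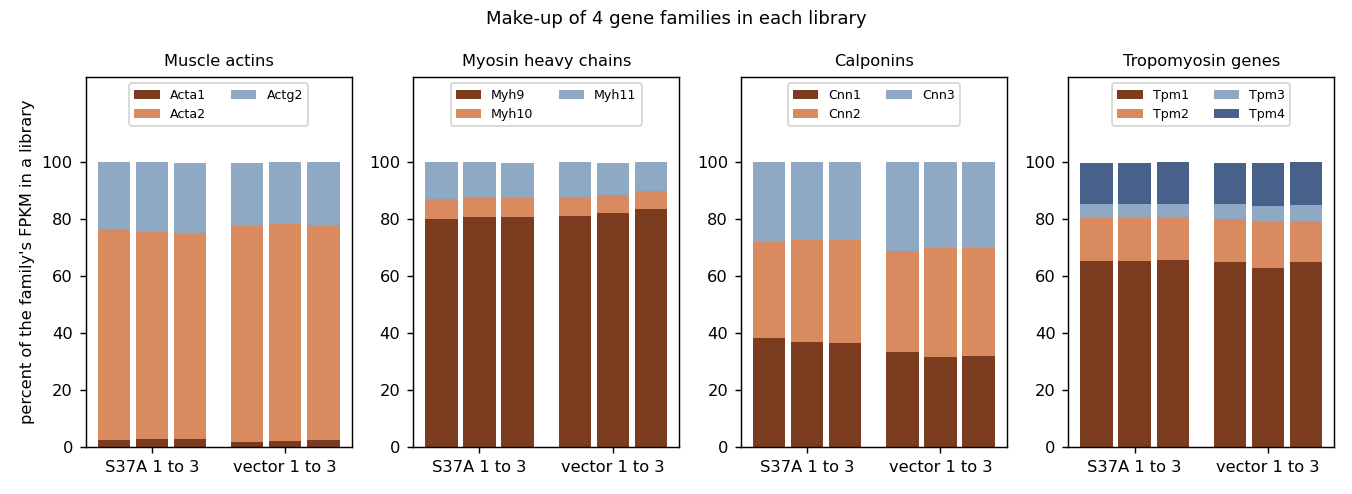
Percent of each family's FPKM held by each gene in each library, for muscle actins (Acta1, Acta2, Actg2), myosin heavy chains, calponins and tropomyosins, with S37A 1 to 3 left of vector 1 to 3. Cnn1 takes 37.3% of the calponins in S37A and 32.2% in vector cells, and Acta2 73.0% of the muscle actins in S37A and 76.0% in vector cells.

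Transcript models of Tpm1, Cald1 and Myh11 were examined apart, because splicing of these genes differs between smooth muscle and other cells. Of 13 models, 9 were listed at 0 in all 6 libraries and 4 could be tested over 14550 models, of which 381, or 2.62%, were called higher and 770, or 5.29%, lower. Of the 4, 2 were higher and 0 lower (0 lower also at an unadjusted p under 0.05 in limma). Tpm1 had 10 models, 6 starting at the upstream first exon and 4 at the internal one. All FPKM fell on 2 of the 6 upstream models, which are of equal length and use a different second exon. Exon 2a is the one known as the smooth muscle exon, and exon 2b is the one used in most other cells. Their sequences are shown because the choice between them is what separates these models. Both are 126 bases, and capitals mark the 66 positions at which they differ.
Tpm1 exon 2a (chr9:67048124-67048249, minus strand): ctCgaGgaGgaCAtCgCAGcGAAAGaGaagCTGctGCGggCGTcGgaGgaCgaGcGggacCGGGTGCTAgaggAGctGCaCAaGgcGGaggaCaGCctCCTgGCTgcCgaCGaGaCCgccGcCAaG
Tpm1 exon 2b (chr9:67047786-67047911, minus strand): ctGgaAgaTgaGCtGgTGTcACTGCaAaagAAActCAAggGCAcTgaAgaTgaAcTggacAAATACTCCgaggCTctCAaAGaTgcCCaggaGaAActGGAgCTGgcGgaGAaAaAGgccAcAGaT
The exon 2b model, NM_024427, had 1581, 1605 and 1619.7 FPKM in S37A and 1397, 1315 and 1458 FPKM in vector cells (log2 difference 0.21, SE 0.04, adjusted p = 0.0472). The exon 2a model, NM_001164249, had 743, 703 and 728 FPKM in S37A and 663, 643 and 667 FPKM in vector cells (log2 difference 0.14, SE 0.03, adjusted p = 0.0534). Both lay higher in every S37A library, and of the 2 the exon 2b model passed the threshold, a call lost without any 1 of the 6 libraries (adjusted p = 0.0729 to 0.145). The exon 2a model passed too under median-ratio scaling (adjusted p = 0.0371) and with a pseudocount of 0.1 FPKM (adjusted p = 0.0491), within 0.0371 to 0.159 over its alternatives. The exon 2a share of Tpm1 FPKM was 32.0%, 30.5% and 31.0% in S37A and 32.2%, 32.8% and 31.4% in vector cells, with overlapping groups (exact permutation p = 0.2). In limma's test of model usage, the log2 difference of the exon 2a model relative to that of the exon 2b model was -0.07 (adjusted p = 0.588). Of 4683 models in this test, 245, or 5.23%, were called. Model usage was called for 0 of the 15 models of these 40 genes that it could test, with 4 at an unadjusted p under 0.05.

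Cald1 had 1 model, NM_145575, of 4035 bases, so the long smooth muscle form and the short form of other cells could not be separated. On the model level its log2 difference of 0.38 had an adjusted p of 0.0246, which was 0.0665, 0.0944 and 0.110 without S37A replicate 1, 2 or 3 and 0.0640 without vector replicate 3. Myh11 had 2 models that differ by a 39-base exon near the 3′ end, whose inclusion changes the tail of the heavy chain. It is shown because it is the feature that would tell the models apart, and capitals mark the 28 bases that are coding.
Myh11 exon (chr16:14198050-14198088, minus strand): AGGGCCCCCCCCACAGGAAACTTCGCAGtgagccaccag
The model with this exon, NM_013607, was listed at 0 in all 6 libraries, and the model without it, NM_001161775, carried all Myh11 FPKM (model-level adjusted p = 0.109, not called). A value of 0 in such tables can be a failed estimate rather than absence. The same holds for the other 8 Tpm1 models at 0.

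**Figure D4:**
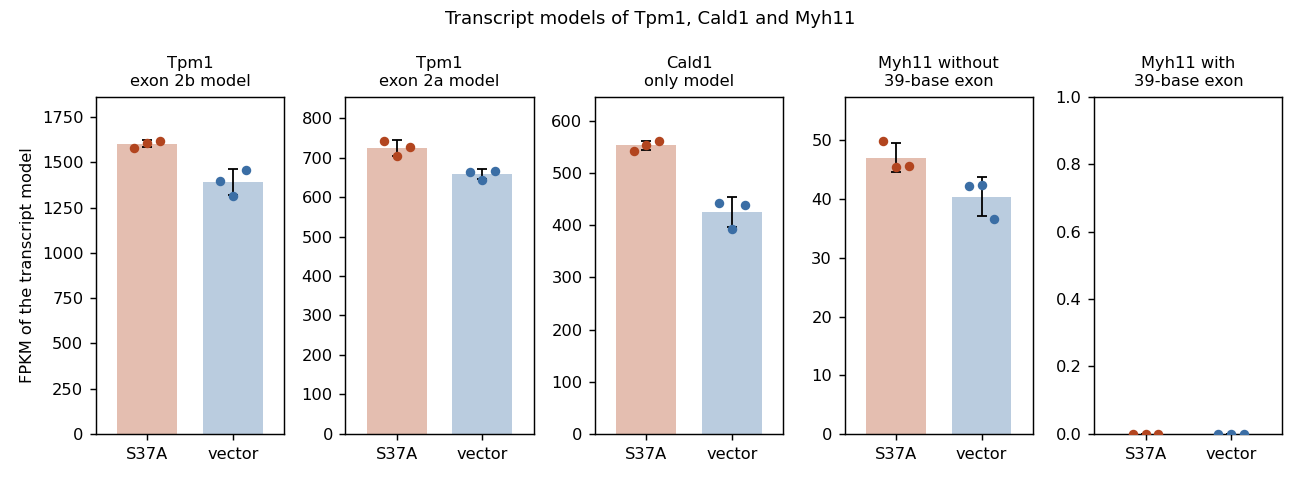
FPKM of the 2 Tpm1 models with a value above 0, the Cald1 model and both Myh11 models in each library, with S37A left of vector; points are libraries, bars means and error bars SD, n = 3 each, and the axes differ between panels. The Cald1 panel separates the groups most clearly, at 543 to 562 FPKM in S37A and 392 to 443 FPKM in vector cells, and the last Myh11 model sits at 0 throughout.

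Limma called 0 of the 3 regulators tested, with 1, Srf, at an unadjusted p under 0.05. Srf, the transcription factor that binds the CArG box, had 22.9, 23.1 and 23.0 FPKM in S37A and 17.6, 20.4 and 22.5 FPKM in vector cells (log2 difference 0.19, SE 0.08, adjusted p = 0.110). The S37A libraries were tightly grouped above a scattered vector group, and without vector replicate 3 Srf was called (adjusted p = 0.0456; 0.0456 to 0.267 over all alternatives). Mkl1, or MRTF-A, had 27.5, 27.8 and 27.5 FPKM in S37A and 27.0, 26.1 and 27.2 FPKM in vector cells (adjusted p = 0.351). Mkl2, or MRTF-B, had 4.05, 4.13 and 4.13 FPKM in S37A and 4.40, 4.12 and 4.26 FPKM in vector cells (adjusted p = 0.469). Median-ratio scaling turned the sign of Mkl2 (log2 difference 0.02). Myocd, the smooth and cardiac muscle coactivator myocardin, was too low to test: it had 0.682, 0.560 and 0.486 FPKM in S37A and 0.419, 0.357 and 0.377 FPKM in vector cells, without overlap.

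Among crosslinkers and adhesion genes, 3 of 9 tested were higher, 0 were lower and 6 were not called. Csrp2, a LIM protein of smooth muscle that binds α-actinin (chromosome 10, 110919789 to 110939622, plus strand), had 84.1, 94.8 and 92.7 FPKM in S37A and 53.0, 57.0 and 64.1 FPKM in vector cells. This was the largest difference of the 37 genes, 1.56-fold, with a log2 difference of 0.64 (SE 0.07, adjusted p = 0.00440). Csrp1, its more abundant relative (chromosome 1, 135720061 to 135752232), had 1127, 1037 and 1078 FPKM in S37A and 876, 978 and 916 FPKM in vector cells (log2 difference 0.23, SE 0.05, adjusted p = 0.0221). Without S37A replicate 1 or 3 or vector replicate 3 its adjusted p was 0.0602, 0.0746 and 0.0646. Vcl, vinculin, which ties actin to integrin and cadherin adhesions (chromosome 14, 20929398 to 21033676, plus strand), had 256, 235 and 239 FPKM in S37A and 197, 208 and 201 FPKM in vector cells. Its groups did not overlap and the log2 difference was 0.27 (SE 0.04, adjusted p = 0.00948).
The gene not called with the largest difference was Pdlim3, a PDZ and LIM protein of actin bundles, with 0.996, 1.11 and 0.857 FPKM in S37A and 0.731, 0.820 and 0.573 FPKM in vector cells (log2 difference 0.22, adjusted p = 0.0698), without overlap but at a level close to the filter. Flna, filamin A, which crosslinks actin networks, had 409.9, 382 and 382 FPKM in S37A and 339.9, 379 and 359.9 FPKM in vector cells (adjusted p = 0.104). Actn1, α-actinin of stress fibres, had 603, 564 and 571 FPKM in S37A and 562, 641 and 580.1 FPKM in vector cells (log2 difference -0.04, adjusted p = 0.643; its sign turned under median-ratio scaling, to 0.04). Synpo2, Ldb3 and Pdlim7, further actin or Z-disc partners, had adjusted p-values of 0.199, 0.440 and 0.377. Synpo2 was called higher without vector replicate 1 (adjusted p = 0.0482; 0.0332 to 0.470 over all alternatives). Pgm5, aciculin of adherens junctions, was not tested, at 0.378 to 0.458 FPKM in S37A and 0.399 to 0.406 FPKM in vector cells.

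Des, desmin, the muscle intermediate filament (chromosome 1, 75360329 to 75368579, plus strand), had 99.1, 99.5 and 99.1 FPKM in S37A and 75.1, 83.8 and 80.4 FPKM in vector cells. The S37A libraries were within 1 FPKM of each other and all above the vector libraries, with a log2 difference of 0.31 (SE 0.04, adjusted p = 0.00668). Synm, synemin, which copolymerizes with desmin, was low at 0.546, 0.474 and 0.502 FPKM in S37A and 0.691, 0.438 and 0.525 FPKM in vector cells (log2 difference -0.04, adjusted p = 0.706), with overlapping groups.

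A wider list of 104 genes of the actomyosin machinery, its adhesions and its control gave 91 tested genes, of which 27 were higher, 7 lower and 57 not called, with a median log2 difference of 0.09. Over all genes tested, 6.06% were higher and 19.9% lower, with a median of -0.07. This list too was chosen with earlier results of these data known, so the contrast is descriptive. The list had 11 to 26 higher and 0 to 3 lower calls when a library was left out, and 2 lower under median-ratio scaling, quantile normalization, rescaling or the replicate block. Palld, Nebl and Lpp were among the 4 with the smallest p, and all 3 were higher. Palld, palladin of actin bundles, had 159.9, 161 and 163 FPKM in S37A and 121, 111 and 127 FPKM in vector cells (log2 difference 0.43, adjusted p = 0.00428). Nebl, nebulette, an actin-binding Z-disc protein, was low but 3.00-fold higher, at 1.03, 0.837 and 1.03 FPKM in S37A and 0.360, 0.344 and 0.260 FPKM in vector cells (log2 difference 0.57, adjusted p = 0.00421). Lpp, a LIM protein of focal adhesions, had 41.2, 38.9 and 40.5 FPKM in S37A and 30.4, 30.3 and 31.5 FPKM in vector cells (log2 difference 0.38, adjusted p = 0.00260). With its most abundant model alone, Lpp differed by -0.01 (adjusted p = 0.977, with 0.000649 to 0.977 over all alternatives). The rise of its sum thus lay in the FPKM assigned to its other models. Model FPKM are estimates, and reads can be traded between models of a gene. The 7 lower genes were Mef2d, Myl6b, Sorbs2, Pdlim1, Pxn, Gata6 and Tagln3, and of these Myl6b, an essential light chain, had 3.72, 3.60 and 3.55 FPKM in S37A and 4.55, 4.84 and 4.36 FPKM in vector cells (log2 difference -0.27, adjusted p = 0.0119).

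Acta1, Actg2, Cnn1, Cald1, Vcl, Csrp2 and Des were called higher under all 17 alternatives, and the other 12 lost the call under at least 1. In vector libraries the low value came most often from replicate 1, which was the lowest for 21 of the 37 genes, yet without it 18 genes were called higher, 17 of them among the 19, and 1, Ppp1r12a, was called lower.

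**Figure D5:**
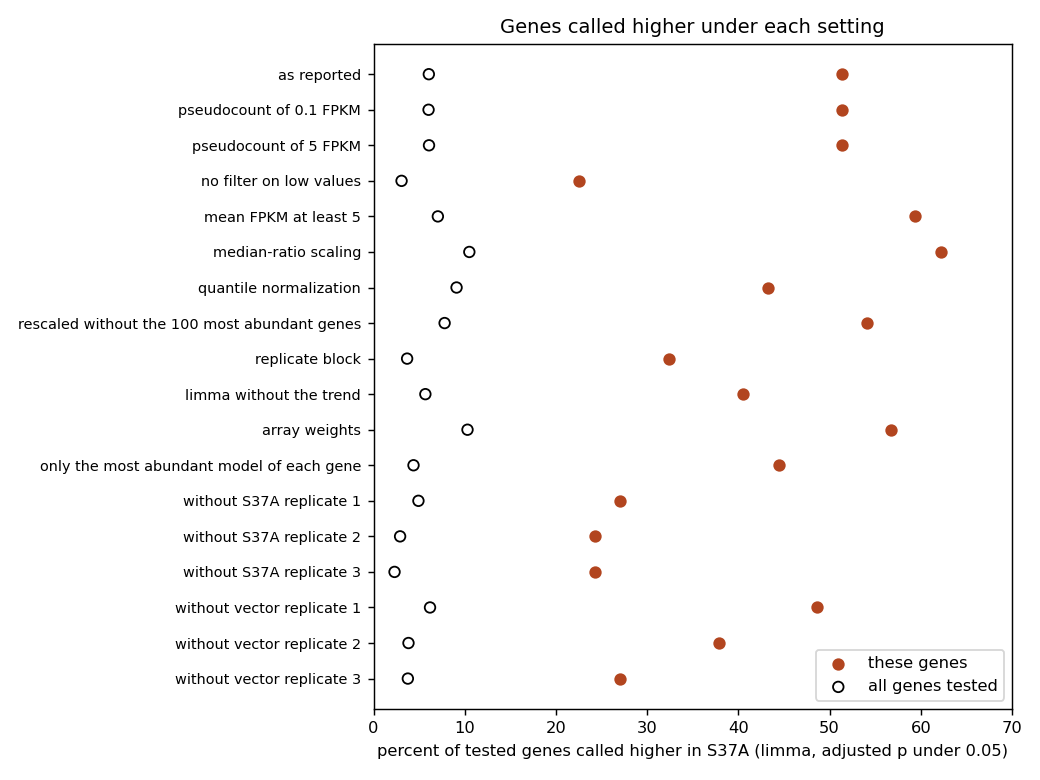
Percent of tested genes called higher in S37A under each setting, for these genes (filled) and for all genes tested (open). The filled points lie to the right of the open points under every setting shown, at 51.4% and 6.06% as reported.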

How the data were processed

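RNA of 3 S37A and 3 vector libraries was measured, with groups and replicate numbers taken from the sample titles. Per the labels' protocols, complementary DNA was made by SMART-Seq v4 with random and oligo(dT) priming, which marks no strand, and sequenced on a HiSeq. The tools were bcl2fastq 1.8.3, Cufflinks and TopHat, on the mm10 build, per the submitters' processing notes. Each deposited file holds FPKM per transcript model with confidence bounds, a coverage signal, a length and a status, per the file headers. The deposited coverage signal was proportional to FPKM inside each library and was used neither in the tests nor for depth. Counts were not used: fragment numbers inferred from the confidence bounds were whole, within 0.02, for 61.7% to 64.8% of models of up to 10 fragments and for 6.77% to 7.29% above 30, so whole reads were not recovered. The depths given are inferred in the same way.

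FPKM of the 34535 models was summed by symbol, leaving out 5 genes of another status than OK, none of them described here. The 12022 genes of mean at least 0.5 FPKM were tested on log2(FPKM + 1) in limma 3.58.1 (R 4.3.3), with intensity trend and Benjamini-Hochberg adjustment at 0.05. This scale understates changes of low genes. Models and their usage were tested likewise. Shares had two-sided exact permutation tests. The scripts were tested on simulated data. Positions come from GENCODE M21 and promoters from RefSeq. Mkl1 and Mkl2 are named Mrtfa and Mrtfb in the annotation. The genes and lists were chosen with earlier results of these data known. Per-library values are given by role, for the 3 smallest p and the largest uncalled difference and beyond these where useful. A gene of the wider list that meets the rule of the 4 smallest p is not reported here.

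Same-numbered libraries were checked for shared deviations, and 17 alternatives were tried for pseudocount, filter, scaling, model and left-out libraries.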

Additional observations from a re-analysis of the deposited data

How the results depend on the processing

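The count of 19 genes higher in S37A was 9 with no filter on low values, 12 with the replicate block, 23 with median-ratio scaling, 16 with quantile normalization, 20 after rescaling without the 100 most abundant genes, 15 without the trend, 21 with array weights, 16 with the most abundant model only, and 9 to 18 with a library left out. All 19 remained under median-ratio scaling and under rescaling. Array weights called 2 genes lower, Ppp1r12a and Tpm3, and leaving out a library 0 to 1. Over all genes, the 729 higher became 1265 (median-ratio), 1094 (quantile), 442 (block), 1238 (array weights) and 276 to 744 with a library left out. The 2393 lower became 945, 957, 1513 (rescaled), 1193 (block), 3655 (array weights), 1491 (most abundant model) and 547 to 2406 with a library left out. The median difference of the 37 genes was 0.24 under median-ratio scaling. In the wider list, leaving out a library gave 11 to 26 higher and 0 to 3 lower. The 7 lower were 3 at a mean of at least 5 FPKM and 2 under median-ratio, quantile, rescaling and the block. Of the 4 models tested, 3 were higher with median-ratio scaling or a pseudocount of 0.1 FPKM, 1 with no filter, 0 with the block and 0 to 1 with a library left out.

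Signs that turned, none of them called in the fit given, were those of Mkl1 (-0.03, most abundant model), Mkl2 (0.02 median-ratio, 0.05 quantile, 0.02 most abundant model), Actn1 (0.04 median-ratio, 0.00 quantile, -0.08 to 0.02 with a library left out), Ldb3 (-0.12, most abundant model) and Synm (-0.09 to 0.03 with a library left out). The called Lpp turned to -0.01 with its most abundant model. Of 690 recomputed single-gene results, 591 kept direction and call, 75 lost the call, 14 gained it and 10 turned. The causes were not tested.

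Deviations of same-numbered libraries correlated at -0.12, 0.0207 and 0.104, and those of differently numbered libraries at -0.126 to 0.0974. The numbers thus showed no sign of pairing, but 3 libraries in each group cannot exclude it. The replicate block gave 12 of the 37 genes higher. Depth is inferred, no counts were available to the test, and exact tests of 3 against 3 libraries cannot go below 0.1.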
